A study of Mus musculus with 11 samples.

Results

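Zscan4-positive cells were examined in 2 single-cell libraries of mouse embryonic stem (ES) cells. They were chosen by their own reading: among cell barcodes with at least 1000 UMIs (unique molecular identifiers, each standing for 1 captured transcript) and at most 0.9 detected genes per UMI, a cell was a member when its UMIs of Zscan4c, Zscan4d and Zscan4f summed to 1 or more. This gave 56 members among 5042 cells, 54 of 2153 in the library labelled JupHigh and 2 of 2889 in the 2i/LIF library. The single-cell data of the series hold 7079 such cells. The levels of the 3 genes that chose the members are therefore given as a description, and each member was set against the other cells of its own library.

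The study asked how soft agarose microgels and plakoglobin, a catenin of cell junctions encoded by Jup, affect ES cells. The library labelled JupHigh held cells of genotype PGHIGH, which per the labels overexpress plakoglobin strongly from the constitutive CAG promoter, grown in serum/LIF on tissue-culture plastic. The parent line is not named in the labels. The 2i/LIF library held wild-type E14 cells on plastic, in a medium with LIF, a cytokine, and 2 inhibitors, of the kinases MEK and GSK3. The other 3 single-cell libraries, used here only beside these, held PGLOW cells with low plakoglobin overexpression from the same promoter in serum/LIF on plastic (JupLow) and wild-type E14 in serum/LIF, grown once on plastic and once in agarose microgels. All were made with inDrop, a droplet method, and the 6 bulk libraries were not used here. Each condition had 1 library, so no difference below has a replicate check, no test was made, and every interval is an exact 95% interval that covers counting error only. Kept cells had a median of 1731.5 to 2465 UMIs per library, no barcode was shared between libraries, and Jup itself stood at 36.8 to 47.4 CPM (UMIs of a gene per 1e6 UMIs of the cells) in the other cells of the 5 libraries, so its counts set JupHigh apart from the others by little.

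Zscan4 genes encode proteins with a SCAN domain and zinc fingers. In the mouse they are transcribed in the 2-cell embryo, and in ES cell cultures they come on in short bursts in a small share of cells, which at that time also transcribe other genes of the 2-cell stage and have been studied for telomere lengthening. The gene Dux, its regulators Dppa2 and Dppa4, and Nelfa, a subunit of the negative elongation factor, are known from work on this state, and relatives of the translation factor Eif1a are among its usual transcripts.

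The genes that carried the pattern lie in 3 groups of near-copies. The Zscan4 cluster, with 9 genes found in the RefSeq annotation of GRCm38.p6, spans chr7:10794241-11614112 and holds 4 protein-coding genes and 5 pseudogenes. An array of 7 protein-coding genes of the Gm4340 type spans chr10:104142987-104196522. A cluster of 8 Eif1a-like genes, 6 of them protein-coding, spans chr12:87514316-88321762. Zscan4c lies at chr7:11005745-11010547, Zscan4d at chr7:11161643-11166148 and Zscan4f at chr7:11397915-11402318. Upstream stretches of 6 members of the pattern are printed here, since the 3 genes of the rule proved nearly identical in front of their starts. The other 3, on chromosomes 10, 6 and 13 and from the top of the ranking below, also carry GATTCAA or its reverse complement. All 6 stretches come from the RefSeq promoters of GRCm38.p6 and run 5′ to 3′ on the gene's strand. Capitals mark GATTCAA or its reverse complement TTGAATC, and TATAAA or ATATAAG nearer the start.
Zscan4c, chr7:11005552-11005701, plus strand: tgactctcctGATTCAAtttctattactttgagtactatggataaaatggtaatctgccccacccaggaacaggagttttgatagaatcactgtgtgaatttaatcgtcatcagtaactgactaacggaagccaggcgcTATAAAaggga
Zscan4d, chr7:11166203-11166352, minus strand: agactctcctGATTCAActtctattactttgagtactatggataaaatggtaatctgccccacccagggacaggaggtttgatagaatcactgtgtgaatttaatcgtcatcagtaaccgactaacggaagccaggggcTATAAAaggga
Zscan4f, chr7:11397745-11397894, plus strand: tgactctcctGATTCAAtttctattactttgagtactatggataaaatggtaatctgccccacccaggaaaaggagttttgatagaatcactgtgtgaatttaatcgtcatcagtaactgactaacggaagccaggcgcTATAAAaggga
Gm4340, chr10:104193888-104194022, plus strand: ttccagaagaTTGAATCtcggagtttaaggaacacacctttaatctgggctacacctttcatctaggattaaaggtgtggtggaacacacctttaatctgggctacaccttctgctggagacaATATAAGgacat
Eif4a3l1, chr6:136327415-136327521, plus strand: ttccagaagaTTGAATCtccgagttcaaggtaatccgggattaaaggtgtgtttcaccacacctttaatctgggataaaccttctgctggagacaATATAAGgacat
Gm21761, chr13:119913514-119913656, minus strand: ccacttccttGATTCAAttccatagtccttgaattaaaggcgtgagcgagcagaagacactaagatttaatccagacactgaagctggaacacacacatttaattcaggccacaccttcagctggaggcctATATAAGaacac

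Over 150 bases, the stretches of Zscan4c and Zscan4f differed at 1 base, those of Zscan4c and Zscan4d at 6, and those of Zscan4d and Zscan4f at 7. In all 3, GATTCAA and TATAAA were 122 bases apart. In the 250 bases before the start, the promoter of Gm4340 had 249 or 250 bases in common with each of the other 5 array promoters found, and its longest run of letters shared with Eif4a3l1, a gene on another chromosome, was 45 bases. With Gm21761 that longest run was 10 bases and with Zscan4c 8. The longest runs shared by unrelated promoters were not computed, nor those of Eif4a3l1 or Gm21761 with the Zscan4 genes. The letters in capitals were chosen after looking at the windows. On either strand of the 250 bases before the start, GATTCAA stood in 1.89% of 27025 promoters, TATAAA in 12.97% and ATATAAG in 2.40%. GATTCAA was found in 3 of 3 promoters of the rule's genes, in that of Zscan4b, in 6 of 6 of the chromosome 10 array and in 0 of 2 of the chromosome 12 cluster. Outside the 3 groups, 9 promoters were found for the 15 genes ranked highest below in members with 5 or more UMIs. GATTCAA stood in 2 of these 9, Eif4a3l1 and Gm21761, the ones printed here, and not in that of Nelfa. A match is a description of the letters only.

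Near-identity also reaches the transcripts. The last 300 bases of each gene's longest GENCODE transcript, the end that a 3′ droplet method reads, were cut into 50-base windows. Of these windows 100% in Zscan4f, 62.9% in Zscan4c and 47.4% in Zscan4d also occurred in another gene of these groups. For the chromosome 10 array the figure was 100% for each gene, while for Nelfa and Neto2 it was 0%. The Zscan4f transcript was shorter than that of Zscan4c, 1829 against 2276 bases, and 0% of the last windows of Zscan4c occurred in it. The last 300 bases of Zscan4c and Zscan4f are therefore different stretches. How reads were split between copies is therefore uncertain, the other Zscan4 copies are not independent of the rule, and the copies are given as groups wherever possible.

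Members made up 2.51% of the cells of the library labelled JupHigh (1.89 to 3.26%). In 2i/LIF the share was 0.0692% (0.00838 to 0.250%), called from Zscan4c and Zscan4f, since the table used here gave no values for Zscan4d. With each cell thinned to 1000 UMIs the shares were 1.81% and 0.0346%. The other libraries had 11 members of 1200 cells in JupLow (0.917%, 0.458 to 1.63%), 2 of 725 in wild-type serum/LIF (0.276%, 0.0334 to 0.993%) and 3 of 112 in the microgel (2.68%, 0.556 to 7.63%). The interval of JupHigh lay above those of JupLow, wild-type serum/LIF and 2i/LIF at full depth and inside that of the small microgel library. At the equal depth of 1000 UMIs the JupHigh interval, 1.29 to 2.47%, overlapped that of JupLow, 0.400 to 1.53%, so the separation from JupLow did not hold there. Summed over all kept cells, the 3 genes stood at 70.1 CPM in JupHigh (62.4 to 78.4), 0.362 in 2i/LIF (0.0747 to 1.06), 7.99 in JupLow (5.07 to 11.99), 22.3 in wild-type serum/LIF (16.3 to 29.8) and 16.9 in the microgel (4.61 to 43.4).

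**Figure D1:**
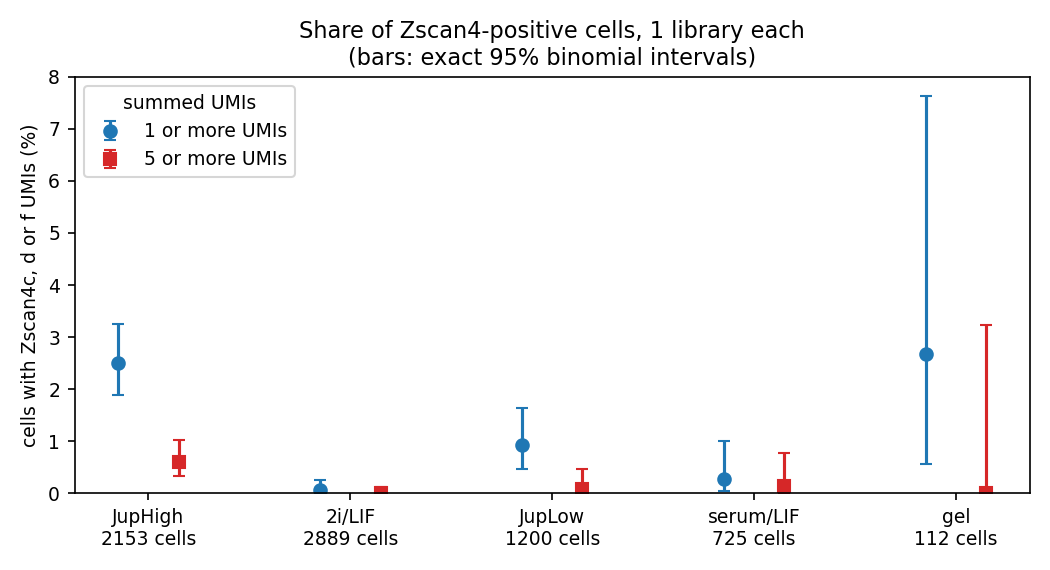
Share of cells, in percent, with 1 or more and with 5 or more summed UMIs of Zscan4c, d and f in each of the 5 single-cell libraries, with exact 95% intervals for counting error. JupHigh had 54 of 2153 cells with 1 or more and 13 with 5 or more, and 2i/LIF had 2 and 0 of 2889.

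Most of the signal sat in few cells. The 54 JupHigh members held 302 UMIs of the rule's genes, 82 of Zscan4c, 103 of Zscan4d and 117 of Zscan4f. Just inside the threshold were 32 cells with 1 UMI, and just outside it 2099 cells with 0. A further 6 cells had 2 UMIs, 3 had 3 and none had 4. The remaining 13 cells had from 5 to 42 UMIs, with a median of 17, and together 249 UMIs or 82.5% of the total. These 13 are called strong members below, a boundary set after seeing the counts, and they are 0.604% of the library (0.322 to 1.03%). In JupLow and in wild-type serum/LIF there was 1 such cell each, 0.0833% (0.00211 to 0.463%) and 0.138% (0.00349 to 0.766%), and both intervals overlapped that of JupHigh. In the microgel and 2i/LIF there were 0, where a count of 3 cells would be 2.68% and 0.104%, and the exact upper limits were 3.24% and 0.128%.

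A single UMI did not set kept cells apart from shallow barcodes of this library. Among the 1190 JupHigh barcodes with at least 500 but under 1000 UMIs, 38 (3.19%) carried a UMI of the rule's genes, none more than 1, and among the 1344 below 500 UMIs, 43 (3.20%) did. Their median depths were 631 and 429 UMIs, against 1902 in the kept cells, so the share with a UMI was no higher in kept cells than in these shallower barcodes. How many of the single UMIs came from free RNA was not tested. In 2i/LIF 0 of 1805 barcodes in that upper range carried one. Of the 32 members with 1 UMI, 13 (40.6%, 23.7 to 59.4%) had a UMI of another Zscan4 copy against 38 of the 2099 cells with 0 (1.81%, 1.28 to 2.48%), a contrast partly fixed by the rule because the copies share sequence. The chromosome 10 array was seen in 9 (28.1%) against 98 (4.67%). After thinning to 1000 UMIs the array was seen in 5 of 32 (15.6%, 5.28 to 32.8%) against 62 of 2099 (2.95%, 2.27 to 3.77%). In level the array stood at 341 CPM in the members with 1 UMI, but 13 of its 24 UMIs were in member 23 (members are numbered by their rule UMIs), and without that cell it stood at 161 CPM (80.6 to 289). It stood at 242 CPM in the barcodes with at least 500 but under 1000 UMIs, where 134 of 1190 carried it, and at 328 CPM below 500 UMIs. Both values of the members with 1 UMI lay above the 34.3 CPM of the cells with 0 rule UMIs. The shallow barcodes were taken whole, those with rule UMIs included and none left out for its array UMIs. Their values can therefore be set neither against the 34.3 CPM nor against those of the members with 1 UMI. Among kept cells the members held 1070 array UMIs and the cells with 0 rule UMIs 144. The other cells had a median of 1900 UMIs, those with 1 UMI 2044 and the strong members 1992, so depth was close in all classes.

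**Figure D2:**
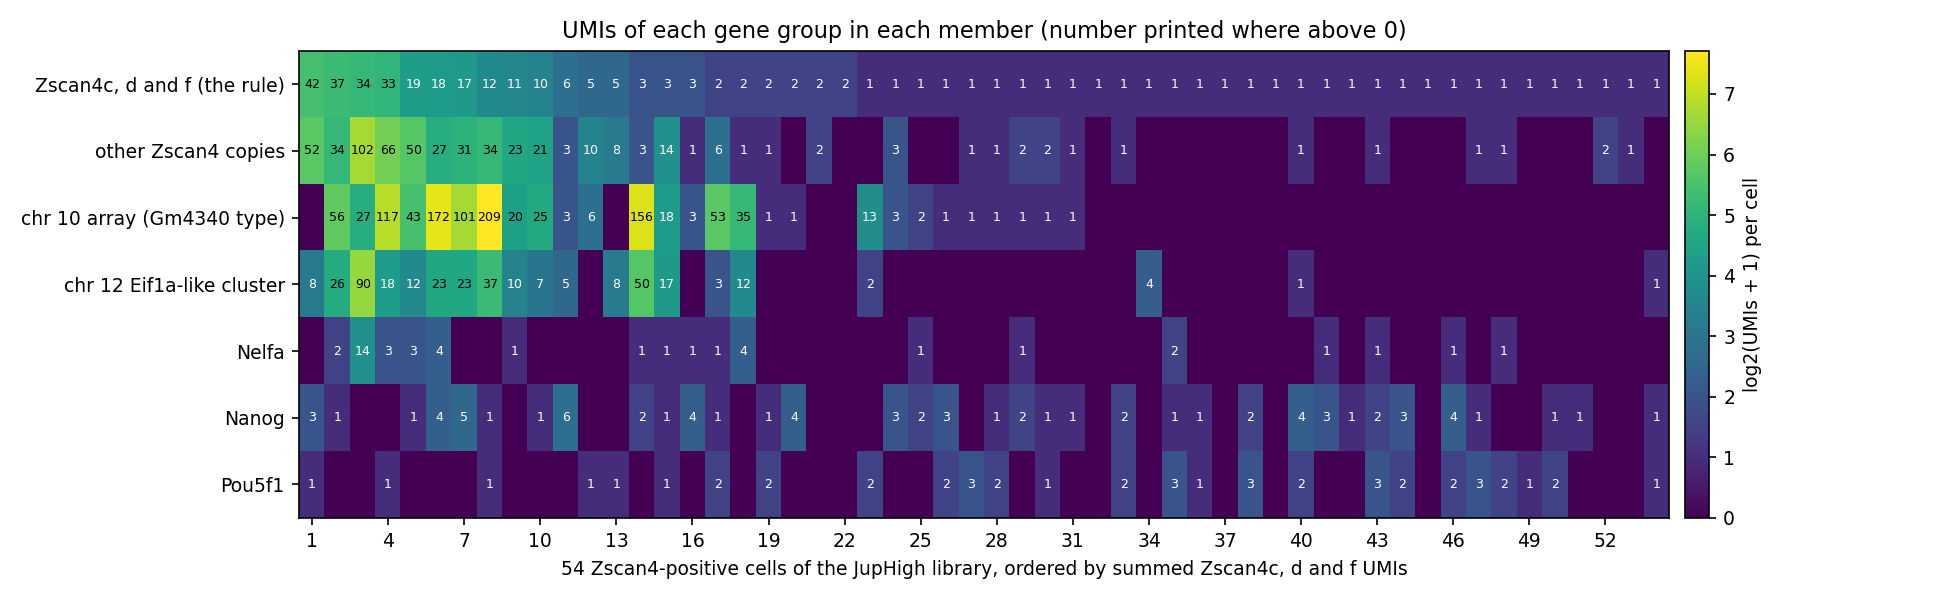
UMIs of each gene group (rows) in each of the 54 members of the JupHigh library (columns, ordered by their Zscan4c, d and f UMIs, color on a log2 scale), with the UMI number printed where it is above 0. Other Zscan4 copies, the chromosome 10 array and the chromosome 12 cluster were seen in 13, 11 and 12 of the 13 strong members on the left and in 13, 9 and 4 of the 32 members with 1 UMI on the right.

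In the strong members the other Zscan4 copies were detected in 13 of 13 cells, with 3 to 102 UMIs per cell and a median of 31. They summed to 461 UMIs or 17261 CPM against 11.0 CPM in the other cells, a log2 ratio of 10.62 (10.18 to 11.09). Zscan4-ps3, annotated as a pseudogene, gave 224 of these UMIs, Zscan4a 126, Zscan4-ps1 44, Zscan4e 29, Zscan4b 20 and Zscan4-ps2 18. Zscan4b had 0 UMIs in the other cells. With a floor of 3 UMIs put in for that group its ratio was 1047-fold, a value that leaves out counting error.

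The chromosome 10 array reached 779 UMIs in the strong members, 29167 CPM against 34.3 CPM, a log2 ratio of 9.73 (9.47 to 9.998). Its level varied widely: 0 UMIs in 2 cells, a median of 27 and a highest value of 209. The chromosome 12 Eif1a-like cluster gave 267 UMIs in 12 of 13 cells, 9997 CPM against 18.1 CPM, a log2 ratio of 9.11 (8.74 to 9.50), of which Gm5662 contributed 107 UMIs against 29 in all other cells. Together with the rule's own genes and the 2-cell-like list, these groups took 6.84% of all UMIs in the strong members and 0.0108% in the other cells.

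Across the strong members the other Zscan4 copies were mostly higher where the rule UMIs were higher, while single cells departed from this in the array and the chromosome 12 cluster. Member 1 had the most rule UMIs, 42, and 52 UMIs of other Zscan4 copies, but 0 of the chromosome 10 array and 8 of the chromosome 12 cluster. Member 8 had 12 rule UMIs and the most array UMIs of any member, 209, and member 3, with 34 rule UMIs, had the most of the other copies, 102, and of the chromosome 12 cluster, 90. Member 14, outside the strong class with 3 rule UMIs, had 156 array and 50 chromosome 12 UMIs. Among the 2099 other cells, 2 had more than 10 array UMIs, 15 and 11, with 0 UMIs of any Zscan4 copy.

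**Figure D3:**
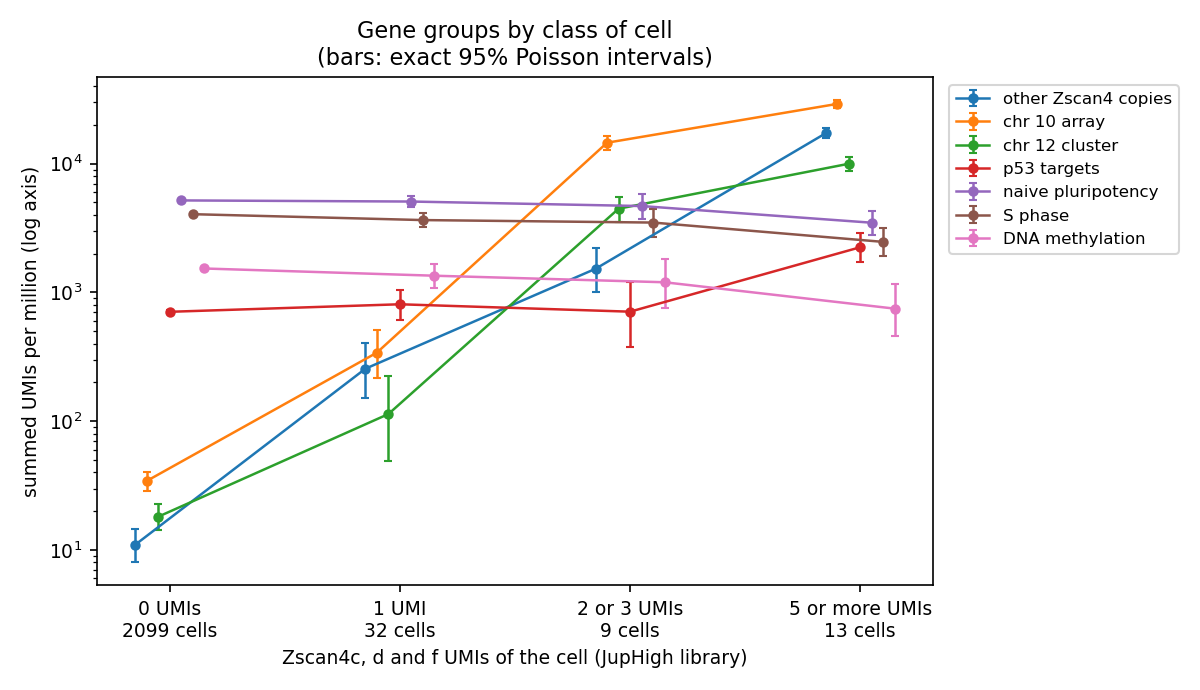
Summed level of each gene group in CPM (log axis) by the number of Zscan4c, d and f UMIs of the cell in the JupHigh library, with exact 95% counting intervals. The array stood at 34.3 CPM in cells with 0 UMIs, 340.9 in those with 1 (161 without member 23), 14567 in those with 2 or 3 (6579 without member 14) and 29167 in the strong members, while the naive list stood between 3482 and 5188 CPM in all classes.

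The wider 2-cell-like list had 50 genes, of which 42 had values in JupHigh, among them genes of the chromosome 10 and 12 groups. No sum without those genes is given here, so the level of the list is not separate from that of the 2 groups. Over all 54 members it gave 723 UMIs, 6263 CPM against 66.3 CPM in the other cells, a log2 ratio of 6.56 (6.36 to 6.77). Of its 14 genes with at least 10 UMIs in the library, 12 were 2-fold or more higher in members and 0 were 2-fold or more lower, against 4.24% higher and 7.4% lower among 12510 genes with that many UMIs, and the median log2 ratio of the 14 was 3.64 against -0.11 over all those genes. The members' own UMIs count toward that minimum, as for Sp110, so genes could enter through the members alone, and the count is a description with no weight as support. In the strong members alone the log2 ratio was 8.12 (7.91 to 8.34), and the list had a UMI in 13 of 13 cells. Member 3 held 120 of their 493 UMIs. The list was uneven: Zfp352, a zinc finger gene of the 2-cell stage, had 3 UMIs in the members with 2 or 3 rule UMIs, 0 in the strong members and 0 in the 2099 cells without a rule UMI. Tcstv3 had 4 UMIs in members, 2 of them in 1 strong member, and 0 in the other cells, and Sp110 had 10 UMIs in members, 8 of them in 3 strong members, against 1 UMI in the 2099 cells without a rule UMI.

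Ranked over the whole table by log2 ratio with 10 CPM added, among genes with at least 5 UMIs in the members, 13 of the 15 highest in JupHigh members belonged to these groups. The 15 were Zscan4-ps3, Gm4340, Gm6763, Gm20765, Zscan4a, Gm8764, Gm5662, Gm21312, Gm21304, Gm8300, Zscan4-ps1, Gm21761, Gm4027, Gm2016 and Eif4a3l1. The first, Zscan4-ps3, had 252 UMIs in members, seen in 26 of 54, against 20 in the other cells (log2 ratio 8.84, 8.18 to 9.57). Gm4340, of the array, had 234 against 23 (8.53, 7.91 to 9.22). Gm21761 on chromosome 13 and Eif4a3l1 on chromosome 6, a relative of the exon junction helicase Eif4a3, lie outside the 3 groups and had 50 against 9 UMIs (7.66, 6.62 to 8.87) and 48 against 17 (6.68, 5.86 to 7.57). Of all 4024 genes that could enter, 299 (7.43%) were 2-fold or more higher, but with few UMIs in members many such genes are within counting error. Among the 802 genes with at least 20 expected UMIs, where counting error is smaller, 0 were 2-fold or more higher and 7 (0.873%) were 2-fold or more lower.

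Over the 2153 JupHigh cells, thinned to 1000 UMIs, the genes whose UMIs followed those of the rule most closely were Zscan4-ps3 with a Pearson correlation of 0.846, Zscan4-ps1 with 0.791, Zscan4a with 0.788, Zscan4e with 0.766 and Gm21037 with 0.684. Cells of 1 library share its depth and free RNA, and the Zscan4 copies share reads with the rule's genes, so these values are a description. Gm21037 had 7 UMIs in 5 members, all of them strong, and 0 in the other cells. With a floor of 3 UMIs put in for the other cells its ratio was 84.8-fold, a value that leaves out counting error.

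With the 3 groups left out, the same ranking in the strong members gave other genes, each resting on few cells. They were Gm48388, Eif4a3l1, Gm21761, Gm50180, Gm12794, Sp110, Gm16026, Popdc3, Gm21037, Adgrl3, Neto2, Ccser1, Gm16478, Abcb5 and Zfp560. Of all 878 genes with at least 5 UMIs in the strong members or 20 expected, the 3 groups included, 210 (23.9%) were 2-fold or more higher. A gene could enter through the UMIs of the strong members alone, so the ratios below are a description. Gm48388 had 24 UMIs in 5 strong members, 12 of them in member 3, against 1 in the other cells. Neto2, an auxiliary subunit of kainate receptors whose last 300 transcript bases share no 50-base window with the 3 groups, had 17 UMIs in 7 of 13 strong members, 636 CPM against 15.5 (log2 ratio 5.36, 4.50 to 6.15). Popdc3 had 10 UMIs in 3 cells, 8 of them in 1 cell, and Gm12794 had 9 UMIs in 2 cells.

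**Figure D4:**
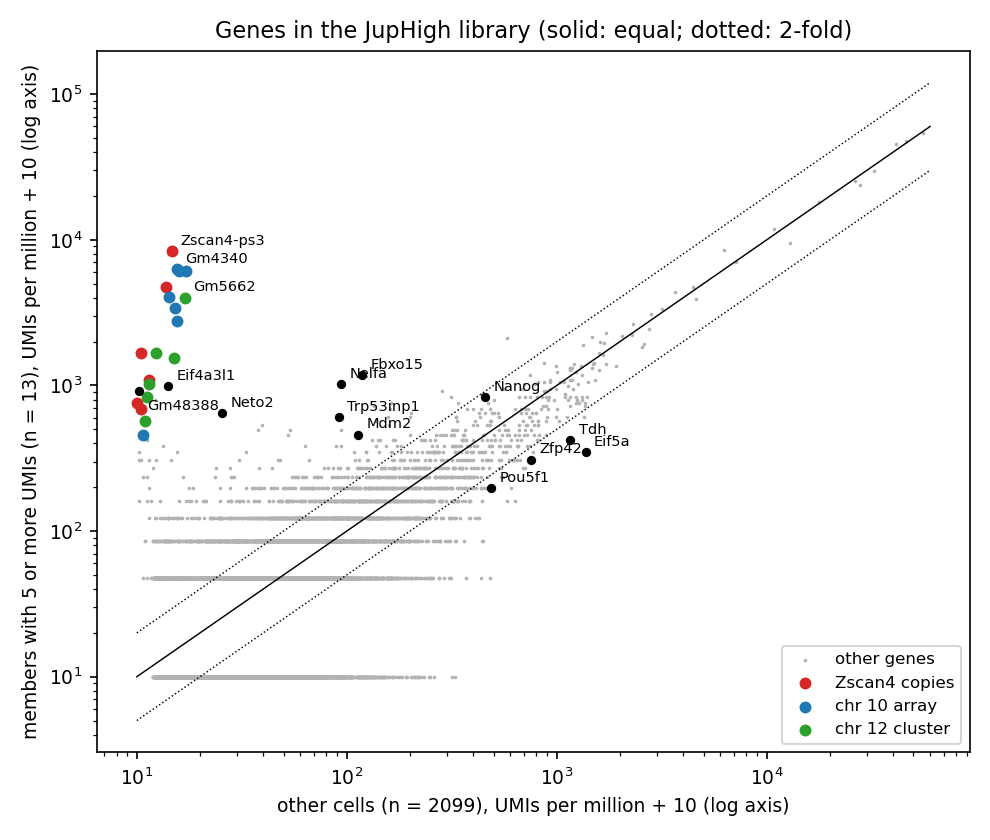
Each gene of the JupHigh library by its level in the 2099 other cells and in the 13 strong members, as CPM plus 10 on log axes, with lines at equal level and at 2-fold. Zscan4 copies, the chromosome 10 array and the chromosome 12 cluster stand far above the lines, Nelfa, Fbxo15 and Neto2 above them, and Pou5f1, Zfp42, Tdh and Eif5a below.

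Among the regulators of the 2-cell-like state, the 22 genes measured summed to 4119 CPM in the strong members and 3902 CPM in the other cells (log2 ratio 0.08, -0.21 to 0.35). Of the 21 with at least 10 UMIs in the library, 2 were 2-fold or more higher and 10 lower, against 13.6% and 30.9% of all 12435 such genes, and their median log2 ratio was -0.59 against -0.53. Within the list Nelfa had 27 UMIs in 6 of 13 strong members, 1011 CPM against 83.7 (log2 ratio 3.59, 2.97 to 4.16). Member 3 carried 14 of these, and without it Nelfa stood at 513 CPM, a log2 ratio of 2.62. Dppa2 had 8 UMIs in 5 strong members, 299.5 against 104 CPM (1.52, 0.30 to 2.51), and Dppa4 1 UMI where 3.43 were expected from the other cells. Rif1, a factor of replication timing that is also known as a repressor of Zscan4 genes, had 23 UMIs in 9 of 13 cells, 861 against 433 CPM (0.99, 0.33 to 1.58). Trim28, a corepressor of retroelements, had 31 UMIs in 12 of 13 cells, 1161 against 1306 CPM (-0.17, -0.73 to 0.34).

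Pluripotency genes were not uniform in the strong members. The 18 genes of the naive list summed to 93 UMIs, 3482 against 5188 CPM (log2 ratio -0.58, -0.89 to -0.28), and 9 of the 18 were 2-fold or more lower and 0 higher, against 30.9% lower and 13.6% higher among 12435 genes at this depth. The median log2 ratio of the list was -1.05 and that of all those genes -0.53, since most genes have 0 or few UMIs in 13 cells. Over all 54 members the naive list stood at 4652 CPM against 5188 (-0.16, -0.28 to -0.03), and 1 of 18 genes was 2-fold or more lower, with 0 higher, near the 7.4% and 4.24% of all genes.

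Single naive and core factors differed from each other. The list of 8 general pluripotency genes summed to 55 UMIs in the strong members where 63.0 were expected (log2 ratio -0.20, -0.61 to 0.19). Without member 11 that list had 40 UMIs where 54.8 were expected (-0.45, -0.94 to -0.01). In the members with 1 UMI its log2 ratio was 0.27 (0.06 to 0.47). Pou5f1 (Oct4), the core factor of pluripotency, had 5 UMIs in the strong members, 1 in each of 5 cells, where 12.7 were expected (log2 ratio -1.35, -2.97 to -0.12). Zfp42 (Rex1) had 8 where 19.9 were expected (-1.31, -2.53 to -0.33), and Klf2 4 where 11.5 were expected (-1.53, -3.40 to -0.17). Nanog, in contrast, had 22 UMIs in 8 of 13 strong members, with 11.9 expected (0.89, 0.21 to 1.49), and 6 of them lay in member 11, without which its log2 ratio was 0.63 (-0.18 to 1.34). Dppa5a had 25 against 24.5 expected (0.03, -0.60 to 0.59). Fbxo15, an F-box gene that is a known target of Oct4 and Sox2, had 31 UMIs in 10 of 13 cells, 1161 against 109 CPM (3.42, 2.84 to 3.94). In the naive list Tdh, threonine dehydrogenase, had 11 UMIs in 5 cells where 30.7 were expected (-1.48, -2.48 to -0.64).

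The DNA methylation list, of methyltransferases, Uhrf1 and the TET dioxygenases, summed to 749 against 1536 CPM in the strong members (log2 ratio -1.04, -1.75 to -0.41), with 3 of 10 genes 2-fold or more lower and 0 higher. That count is near the 30.9% lower among all genes of the strong members. Within it Tet1 had 1 UMI where 11.4 were expected (-3.51, -8.81 to -1.03). Dnmt1, the maintenance methyltransferase, had 1 where 3.18 were expected, and Uhrf1, which recruits it, had 3 where 3.62 were expected. The S-phase list summed to 2471 against 4057 CPM (-0.72, -1.09 to -0.37), with 8 of 20 genes 2-fold or more lower and 1 higher, against 30.9% and 13.6% of all genes, and the G2/M list to 3819 against 3810 CPM (0.00, -0.29 to 0.28). The translation factor list stood at 7339 against 8089 CPM (-0.14, -0.35 to 0.06). Eif5a, a translation elongation factor in that list, had 9 UMIs in 7 strong members where 36.4 were expected (-2.02, -3.15 to -1.09).

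Of the genes with at least 20 expected UMIs in the strong members, 4 of 112 (3.57%) were 2-fold or more lower and 0 higher. The 10 lowest were Eif5a, Tdh, the chaperonin subunit Cct3, the RNA-binding protein gene Hnrnpa2b1, Prdx1, Erh, Adamts3, Ptk2, Ptma and Rps28. Over all 54 members the 10 lowest were Luc7l, Suz12, Larp1, Ccnt2, Cdh1, Luc7l2, Meg3, Mcm3, Malat1 and Epha2. Luc7l, of a splicing factor family, had 12 UMIs where 30.5 were expected (log2 ratio -1.35, -2.30 to -0.54), and Suz12, a subunit of the Polycomb repressive complex that methylates histone H3, 10 where 25.1 were expected (-1.33, -2.39 to -0.44). Meg3, an imprinted noncoding RNA, had 17 where 35.5 were expected (-1.06, -1.85 to -0.38). These are the extremes of many genes, without a replicate.

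The p53 target list was higher in the strong members in sum, 60 UMIs and 2247 against 708 CPM (log2 ratio 1.67, 1.27 to 2.03), but 37 of the 60 UMIs were in member 11. Without that cell the list had 23 UMIs, 990 CPM, and a log2 ratio of 0.48 (-0.18 to 1.07). Mdm2, the ubiquitin ligase of p53, had 12 UMIs with it and 4 without. Trp53inp1 had 16 UMIs in 7 of 13 cells, and without member 11 it had 7, at 301 against 81.8 CPM (1.88, 0.56 to 2.94). The integrated stress list had 21 UMIs (log2 ratio 1.16, 0.46 to 1.77), of which 16 were also in member 11. Without that cell it had 5 UMIs where 8.20 were expected (-0.71, -2.34 to 0.51).

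Markers of other cell types had few UMIs, at a depth where few were expected. In the strong members the measured genes of the fibroblast (5), primitive endoderm (10), trophectoderm (6) and mesendoderm (5) lists were all at 0 UMIs, where 0.172, 2.63, 1.32 and 0.166 were expected from the other cells, so these zeros do not separate the members from the other cells. Of the neural list only Nes was seen, with 2 UMIs in 1 cell where 0.293 were expected for the list. Over all 54 members the primitive endoderm list had 7 UMIs, from Lama1 and Col4a1, 60.6 against 98.4 CPM, and the trophectoderm list 5, from Eomes and Tfap2c, 43.3 against 49.3 CPM. The strong members had fewer detected genes per UMI than the other cells, a median of 0.469 against 0.590, and 571 against 696 genes after thinning to 1000 UMIs. Mitochondrial transcripts were 13.7% against 14.8% of UMIs. The part of this lower gene number in the naive and other lists was not tested. Jup had 3 UMIs in 3 strong members and 7 in all members, where 1.27 and 5.48 were expected.

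In 2i/LIF the 2 members had little in common. Member 1 had 2 UMIs of Zscan4f, 2 of other Zscan4 copies, 2 of the chromosome 10 array, 3 of the chromosome 12 cluster and 1 of Nelfa among 3517 UMIs. The table gave values for 1 of the 6 other Zscan4 copies, 4 of the 7 array genes and 3 of the 8 chromosome 12 genes, so these counts cover part of each group. For the same genes the 2887 other cells of that library together had 3, 2 and 4 UMIs of those 3 groups, so this 1 cell had as many array UMIs as all the others together. It also had 29.9% mitochondrial UMIs and 0.285 detected genes per UMI, against 9.81% and a median of 0.562 in the other cells, and what part this plays was not tested. Member 2, with 1 UMI of Zscan4c among 1206, had 0 of the measured genes of each group. The 2-cell-like list, of which 18 genes had values, gave 4 UMIs in the 2 members where 0.283 were expected (log2 ratio 3.82, 1.94 to 5.19), and all 4 were in member 1. Of the 5 genes of that list with at least 10 UMIs in the library, 0 were higher and 5 lower in the members. The 2 members held 4723 UMIs, so most genes had few or 0 UMIs in them. Of the regulators 17 of 21 were also lower and 4 higher, and of the naive genes 13 of 18 were lower and 5 higher. The share over all genes was not computed, so the count does not set the list apart. The naive list gave 18 where 23.7 were expected (-0.39, -1.15 to 0.27).

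For the pool of both libraries the 2-cell-like list had a log2 ratio of 6.61 (6.46 to 6.76), and 6.52 with the libraries kept as strata. The naive list had -0.13 (-0.26 to -0.01), and -0.17 with strata. JupHigh gave 54 of the 56 members, so the pool says little of 2i/LIF. Of the 77 genes with enough UMIs to enter in both libraries, 0 were 2-fold or more higher in members of each (0%). All 77 had at least 5 UMIs in the 2 members of 2i/LIF. There the other Zscan4 copies, the array and the chromosome 12 cluster summed to 2, 2 and 3 UMIs. No gene of these groups could therefore enter, and the count of 0 says nothing of them.

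Cells with all or some of the same groups of transcripts were present in the other libraries. In wild-type serum/LIF, 1 cell had 44 rule UMIs, 65 UMIs of other Zscan4 copies, 7 of the array, 23 of the chromosome 12 cluster and 9 of Nelfa. In JupLow, 1 cell had 12 rule UMIs with 14, 3 and 13 of those 3 groups. Another had 1 rule UMI with 2, 55 and 0 of the 3 groups and 10 of Nelfa, among 5358 UMIs. In the microgel, 1 cell with 2 rule UMIs had 3, 46 and 1 of the 3 groups. The 15 genes ranked highest in JupHigh members include 3 Zscan4 copies that share sequence with the rule's genes, so their level in these members is not independent of the choice. They summed to a log2 ratio of 8.82 in the 11 JupLow members (8.17 to 9.52), 10.46 in the 2 of wild-type serum/LIF (9.85 to 11.10) and 8.17 in the 3 of the microgel (7.14 to 9.38). UMIs were seen in members for 14 of 15, 14 of 14 and 8 of 15 of these genes. In 2i/LIF 8 of them had values, 4 of which had UMIs in members, with a log2 ratio of 9.27 (7.64 to 10.68). Without the Zscan4 copies the log2 ratios were 8.86 in JupLow (8.13 to 9.65), 9.06 in wild-type serum/LIF (8.27 to 9.87), 8.36 in the microgel (7.20 to 9.75) and 8.97 in 2i/LIF (6.91 to 10.64). Few cells carried these values. The array was seen in 2 of the 11 JupLow members, 1 of which held 55 of its 58 UMIs. In wild-type serum/LIF, the microgel and 2i/LIF the array and the chromosome 12 cluster were each seen in 1 member. The ratios were not recomputed without these cells, and their intervals do not cover the spread between cells. The 10 genes ranked lowest over all JupHigh members summed to -0.17 in JupLow members (-0.59 to 0.21), with 7 of 10 lower. In wild-type serum/LIF they summed to -0.50 (-1.82 to 0.54) with 5 of 10 lower, in the microgel to -1.04 (-2.66 to 0.20) with 8 of 10 lower, and in 2i/LIF to -0.37 (-1.58 to 0.61) with 5 of 10 lower. Each of these intervals included 0. Only 5, 4 and 5 of the 10 genes had a UMI in members of wild-type serum/LIF, the microgel and 2i/LIF, and a gene without one counts as lower. The share of lower genes over all genes was not computed in these libraries or JupLow, so the counts are a description only. Of the 15 genes ranked highest in the strong members without the 3 groups, 14 had values in JupLow, 15 in wild-type serum/LIF and 14 in the microgel. They summed to 3.72 in JupLow (2.68 to 4.62), 4.89 in wild-type serum/LIF (3.95 to 5.70) and 6.06 in the microgel (3.49 to 8.83). UMIs were seen in members for 9, 8 and 2 of them, and the microgel value rests on 4 UMIs. The 9 with values in 2i/LIF had 0 UMIs in its members. The 10 ranked lowest in the strong members summed to -0.03 in JupLow (-0.22 to 0.16) and -0.38 in wild-type serum/LIF (-0.90 to 0.09). In the microgel they summed to -0.71 (-1.27 to -0.20) and in 2i/LIF to -0.86 (-1.41 to -0.36). Members and other cells had 23.2% and 10.8% mitochondrial UMIs in the microgel and 23.5% and 9.81% in 2i/LIF, with a median of 0.440 against 0.573 and 0.451 against 0.562 detected genes per UMI. The part of these differences in the lower values was not tested.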

How the data were processed

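Transcripts of single mouse ES cells were counted with inDrop in 5 libraries, of which the library labelled JupHigh and the 2i/LIF library enter the rule. The authors deposited raw UMI counts (whole numbers) for each gene in each barcode. The submitters' processing notes name STAR, featureCounts, Scanpy, FastQC, DESeq2 and the builds mm10 and GRCm38, without saying which served the single cells, and strand use in counting is not given in the sources used here. Columns without a gene name (0.105% of UMIs in JupHigh, 0.0908% in 2i/LIF) and barcodes that begin and end with 8 or more G were left out, as was 1 incomplete last row of the microgel table. No doublet caller was used, and an alternative leaves out barcodes above 3 times the median UMI count.

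UMIs were summed over cells and divided by the total UMIs (CPM), which for members and other cells leaves out the UMIs of the rule's genes and for whole libraries and shallow barcodes includes them. Log2 ratios carry exact conditional binomial intervals, shares Clopper-Pearson intervals and CPM Poisson intervals, all at 95%. Kept cells held 4310792 UMIs in JupHigh and 8284254 in 2i/LIF. Expected UMIs are those the other cells' CPM would give at the members' total. The ratio step was tested on simulated data. Python 3.11.15, numpy 2.4.6, scipy 1.17.1 and matplotlib 3.10.9 were used.

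Genes were to be named by the smaller log2 ratio of both libraries, with 10 CPM added (15 higher with at least 5 UMIs in members, 10 lower with at least 20 expected). With 2 members in 2i/LIF no gene was 2-fold higher in both, so the rule was applied in JupHigh alone, over all members and, without the 3 groups of near-copies, over the strong members, a change made after seeing the data. The members and gene lists were chosen with earlier results of these data known. Alternatives varied the threshold, the genes that call members, depth, filters, pseudocount and weighting.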

Additional observations from a re-analysis of the deposited data

Results flagged for a closer look

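Signal outside the comparison was seen in cells and barcodes that the rule leaves out. The JupLow library, which does not enter the rule, had 11 cells with at least 1 UMI of Zscan4c, Zscan4d or Zscan4f. In the library labelled JupHigh, 43 barcodes with fewer than 500 UMIs carried such a UMI, 41 of them exactly 1, with a highest value of 6.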

How the results depend on the processing

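No paired analysis was possible because the single-cell libraries carry no replicate numbers and each condition had 1. No test of members against other cells across the 5 libraries was made. Among values recomputed for the shares, depths, counts of genes and summed lists, 141 stayed within their counting interval or 1.5 times the count, and 46 did not. The naive value of 2i/LIF changed sign, with a main interval that included 0. The JupHigh share was 1.81% with cells thinned to 1000 UMIs, 1.08%, 1.32% and 1.59% when members were called by Zscan4c, Zscan4d or Zscan4f alone, and 1.04%, 0.757% and 0.616% at 2, 3 and 5 or more UMIs, with cells below left out. The 2i/LIF share was 0 at 3 or 5 or more UMIs, and it has no value by Zscan4d. With barcodes of 2000 or more UMIs the median depth was 2469.5 in JupHigh members, 2458.5 in JupHigh other cells and 3863 in 2i/LIF other cells. The 2-cell-like log2 ratio in JupHigh was 6.11 at 2000 UMIs, 7.07 thinned, 6.32 without the member with the most UMIs of the list, 7.60, 7.17 and 7.11 by Zscan4c, d or f, and 7.87, 8.23 and 8.12 at 2, 3 and 5 or more UMIs. In the pool these were 6.0002, 7.18, 6.40, 7.65, 7.27, 7.14, 7.87, 8.33 and 8.22, and 6.81 as a mean over cells. The naive log2 ratio in JupHigh was -0.29 thinned, -0.31 and -0.33 by Zscan4c and d, and -0.38, -0.41 and -0.58 at 2, 3 and 5 or more UMIs. In the pool it was -0.0034 at 2000 UMIs, -0.29 by Zscan4d, and -0.38, -0.38 and -0.54 at 2, 3 and 5 or more. In 2i/LIF it was -0.39, and 0.67 thinned and 0.41 without the first member or by Zscan4c, each resting on 1 cell. The number of genes 2-fold higher in JupHigh was 84 with 50 CPM added, against 299. Under the alternatives, the 17 genes named as higher or most correlated over all JupHigh members had a log2 ratio of 1 or more in 289 of 289 values, and the 10 named as lower reached -1 in 120 of 170. Both sets were picked as extremes of the same cells, and some of the 17 are Zscan4 copies that share sequence with the rule's genes. The counts were thus largely fixed by the choice and carry no weight as support. The ranking within the strong members was not recomputed. With 13 strong members, depth limits every statement on a gene with few UMIs. Values for 2i/LIF could not be had where no member or no UMI of the list was left. The cause of these shifts was not tested.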
